A study of Arabidopsis thaliana with 22 samples.

Results

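The change in root transcript levels from 4 h to 8 h after transfer to fresh medium was described from the 4 arrays taken at 8 h and the 4 arrays taken at 4 h, which are 8 of the 22 arrays of the series. The arrays were chosen by their labelled time alone, and no measured value entered the choice. All 22746 probe sets that are not array controls were tested. The study followed Arabidopsis thaliana roots of the accession Col-0 over 24 h to ask how they respond to sulfate limitation. The plants were 10 days old, and the wild-type background was shared by all groups. The 8 h groups were roots from MGRL agar with 0 uM sulfate (arrays A and B) and with 1500 uM sulfate (arrays A and B), and the 4 h groups were the same media and letters at the earlier time. All 8 arrays therefore came from transferred plants, and medium was balanced between the times. Nothing in the labels says that the letters A and B mark separate cultures, so the p-values reflect how these particular samples scatter, and that scatter may be technical. The time of day of sampling is not given in the sources used here, so hours since transfer and time of day cannot be told apart.

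Moving a plant to new agar handles its roots, and many plant transcripts are known to respond to touch and handling within minutes and to relax over hours. The circadian clock runs through the same hours. It is a loop of transcription factors in which morning, afternoon and evening genes repress one another in turn, and it sets the timing of growth, cell wall and carbon metabolism genes also in roots. Sulfate is taken up by root transporters and reduced to cysteine, and low sulfur is known for raising transporters and for lowering glucosinolate synthesis genes.

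Values are MAS5 signals, the brightness of a probe set after the authors' scaling, on a linear scale. Differences are 8 h minus 4 h on the log2(signal + 11) scale with their standard error (SE), and folds are on the same scale. Adding 11 shrinks the change of a dim probe set. The 4 pairs of arrays with the same medium and letter were compared with limma, and a probe set passed at a Benjamini-Hochberg adjusted p under 0.05 over all 22746. The median signal of an array was 43.26 to 45.23 at 8 h and 43.04 to 43.22 at 4 h. The spread of the pair differences over all probe sets (SD) was widest, 0.415, in pair A with sulfate and 0.265 to 0.34 in the other 3 pairs. The root marker PYK10, a beta-glucosidase of endoplasmic reticulum bodies, was among the brightest genes named here, with signals of 3005, 3523, 3500 and 3718 at 8 h and 4072, 3585, 3166 and 3201 at 4 h. Its groups overlapped (log2 difference -0.03, SE 0.14, limma adjusted p = 0.954), and its change was -0.23 without sulfate and 0.18 with sulfate, a difference that did not pass (adjusted p = 0.903).

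Between 4 h and 8 h, 85 probe sets rose and 133 fell. These were 0.374% and 0.585% of those tested, or 0.958% together. The median change was 0.78 among those that rose and -0.79 among those that fell, beside 0.04 over all probe sets. At least a 2-fold change was seen for 26 of the rises and 39 of the falls. All 218 changed the same way in all 4 pairs, which 23.1% of all probe sets did. The 4 arrays at 8 h lay wholly above the 4 at 4 h for 69 of the 85 (4.02% of all probe sets), and wholly below for 120 of the 133 (2.59% of all). Agreement of the pairs, and in part the lack of overlap, follows from passing a test of these same 4 pairs. A single gene is named for 42 of the rises and 51 of the falls, and the other changed probe sets have several genes or none listed.

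The count depended on how the spread was estimated. A fit of all 22 arrays with the letter as a block gave 345 rises and 367 falls (1.52% and 1.61%), and it held 205 of the 218, each with the same sign. Without the pairing, the 8 arrays gave 21 rises and 29 falls. Leaving out 1 pair at a time left 17 rises and 29 falls without pair A lacking sulfate, 18 and 30 without pair B lacking sulfate, 18 and 21 without pair A with sulfate, and 17 and 55 without pair B with sulfate.

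**Figure D1:**
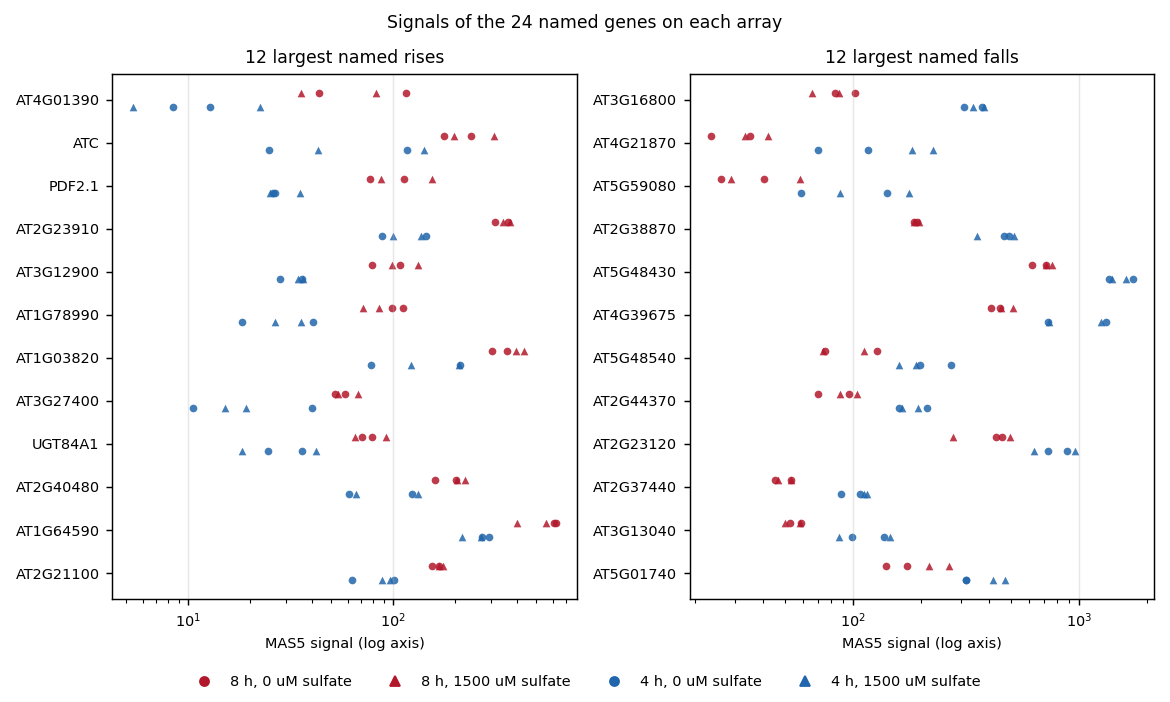
MAS5 signal on each of the 8 arrays (log axis) for the 12 largest rises and the 12 largest falls among named genes; red points are 8 h, blue points 4 h, circles 0 uM and triangles 1500 uM sulfate. In every row the 4 red points lie on one side of the 4 blue points, which the choice of these genes required.

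The genes in the plot of signals on each array were the 12 largest rises and 12 largest falls among those that passed, had 1 gene, did not overlap between times and reached the pooled median signal of 43.9 at one of the times. In the order 0 uM A, 0 uM B, 1500 uM A and 1500 uM B, the largest rise in this set, AT4G01390, a protein with a TRAF-like domain, had signals of 116, 43.7, 82.3 and 35.5 at 8 h and 8.47, 12.8, 22.5 and 5.42 at 4 h (log2 difference 1.72, SE 0.24, limma adjusted p = 0.0278). ATC, a relative of the flowering repressor TERMINAL FLOWER 1, had 177, 241, 197 and 311 at 8 h and 24.8, 117, 42.8 and 141 at 4 h (1.60, SE 0.23, adjusted p = 0.0297). At 4 h both A arrays of ATC lay below both B arrays. When 1 of the 4 pairs was left out in turn, 7 of the 24 genes passed each time, namely PDF2.1, AT2G23910, AT1G64590, AT3G16800, AT2G38870, AT5G48430 and AT2G44370. ATC, AT1G03820, AT2G40480 and AT2G21100 passed in none of the 4 fits, and AT4G01390, AT1G78990, AT3G27400, UGT84A1, AT4G39675, AT3G13040 and AT5G01740 in 1 of them. Over the 24 genes both A arrays lay on one side of both B arrays for 13 at 8 h (10 above, 3 below) and for 16 at 4 h (9 above, 7 below). The same count was not made over all probe sets, so whether these genes split by letter more often than others was not tested.

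AT2G23910, a relative of cinnamoyl-CoA reductase, had signals of 313, 363, 345 and 373 at 8 h and 88.1, 145, 99.9 and 137 at 4 h (log2 difference 1.51, SE 0.10, limma adjusted p = 0.00131). Its change without and with sulfate was 1.71 and 1.68 in the A pairs, and 1.26 and 1.37 in the B pairs. AT3G12900 encodes scopoletin 8-hydroxylase, which makes the iron-mobilising coumarin fraxetin. It averaged 104 ± 22 at 8 h and 33.6 ± 3.76 at 4 h (SD, n = 4 each; log2 difference 1.35). UGT84A1, which glucosylates hydroxycinnamic acids, had signals of 79, 70.7, 65.4 and 91.8 at 8 h and 24.5, 35.9, 18.3 and 42.3 at 4 h (1.12, SE 0.13, limma adjusted p = 0.0157). AT1G78990, an acyltransferase of the HXXXD family, averaged 91.9 ± 17.5 at 8 h and 30.2 ± 9.82 at 4 h (1.34). AT2G21100, a dirigent protein of the kind that steers coupling of phenoxy radicals, averaged 166 ± 8.27 at 8 h and 87 ± 16.7 at 4 h (0.87). In the phenylpropanoid and flavonoid list, 0 of 4 members rose and 1 fell, with a list median of -0.05. That gene was CCR2, cinnamoyl-CoA reductase 2, which fell to 49.3 ± 7.89 at 8 h, against 83.6 ± 19 at 4 h (log2 difference -0.64, limma adjusted p = 0.035).

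PDF2.1, a plant defensin, had signals of 113, 76.8, 154 and 87.1 at 8 h and 25.9, 26.5, 35.3 and 25 at 4 h (log2 difference 1.56, SE 0.13, limma adjusted p = 0.00342). The lowest 8 h array was above the highest 4 h array. It was the 1 of 7 members of the defence protein list that passed. The list was matched by symbol, and PDF1A and PDF1B in it are named for peptide deformylase. AT1G64590, a short-chain dehydrogenase-like protein, was the brightest of the 12 rises at 8 h with 547 ± 101, against 262 ± 33.1 at 4 h (SD, n = 4 each; log2 difference 1.02, SE 0.07). The remaining rises were AT1G03820 (log2 difference 1.30), the pectin lyase-like AT3G27400 (1.17) and AT2G40480 (1.02), with limma adjusted p-values of 0.0331, 0.0434 and 0.0297.

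The falls were led by a signalling gene. AT3G16800, a type 2C protein phosphatase, had signals of 102, 83, 86.4 and 66 at 8 h and 371, 311, 381 and 339.6 at 4 h (log2 difference -1.93, SE 0.09, limma adjusted p = 0.000635). No 8 h array came near a 4 h array. AT4G21870, a small heat shock protein of class V, which holds unfolding proteins in solution, had 23.4, 35.1, 42.1 and 33.3 at 8 h and 69.9, 116, 225 and 182 at 4 h (-1.74, SE 0.17, adjusted p = 0.00782). Its change was -1.35 without sulfate and -2.14 with sulfate, and these did not differ past the test (adjusted p = 0.877).

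AT2G38870, a potato type I proteinase inhibitor, had signals of 191, 187, 187 and 195 at 8 h and 491, 467, 518 and 355 at 4 h (log2 difference -1.21, SE 0.11, limma adjusted p = 0.00486). The brightest fall among the 12 was AT5G48430, an aspartyl protease family protein, with 714, 618, 762 and 712 at 8 h and 1742, 1359, 1613 and 1398 at 4 h (-1.11, SE 0.09, adjusted p = 0.00257). The groups of both genes were separate. AT2G23120, a late embryogenesis abundant protein of the kind made in drying tissue, averaged 415 ± 94.7 at 8 h and 803 ± 148 at 4 h (SD, n = 4 each; log2 difference -0.95).

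The other 7 falls were AT5G59080 (log2 difference -1.31), AT4G39675 (-1.08), the DUF26 protein AT5G48540 (-1.0), the C1 domain protein AT2G44370 (-0.95), the inositol phosphatase-like AT2G37440 (-0.94), the MYB-CC factor AT3G13040 (-0.93) and AT5G01740 of the NTF2 family (-0.92). The limma adjusted p-values of these 7 lay between 0.00511 and 0.0225. For AT5G59080 and AT4G39675 the 4 h arrays differed by letter: AT4G39675 had 1325 and 1250 on the A arrays and 728 and 736 on the B arrays, while its 8 h arrays lay between 409 and 511.

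Larger changes lay on probe sets with no gene listed. Probe set 257985_at had signals of 252, 244, 263 and 224 at 8 h and 27.2, 25.1, 20.9 and 19.8 at 4 h (log2 difference 2.91, SE 0.09, limma adjusted p = 8.12e-05), the largest rise of all. Probe set 263320_at had 219, 148, 171 and 117 at 8 h and 1066, 568, 1040 and 476 at 4 h (-2.14, SE 0.12, adjusted p = 0.00084), the largest fall of all. Probe sets 267364_at (2.12) and 266720_s_at (-2.12) came next, with means of 512 and 9.14 at 8 h and 109 and 76.3 at 4 h.

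Both media moved together. Among the 218, the change had the same sign without and with sulfate in each case. The test of the difference between media passed for 1 of 22746 probe sets (0.0044%), and 1275 (5.61%) had an unadjusted p under 0.05. None of the 218 passed it, and 1 had an unadjusted p under 0.05. That too follows in part from how the 218 passed, since a difference between media widened the spread of the pairs. Within each medium, in the fit of all 22 arrays with letter, 53 probe sets rose and 96 fell without sulfate (0.233% and 0.422%), and 72 rose and 77 fell with sulfate (0.317% and 0.339%). The limit is the number of arrays: each medium has 2 at each time, so a difference that did not pass does not show that the media agree.

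**Figure D2:**
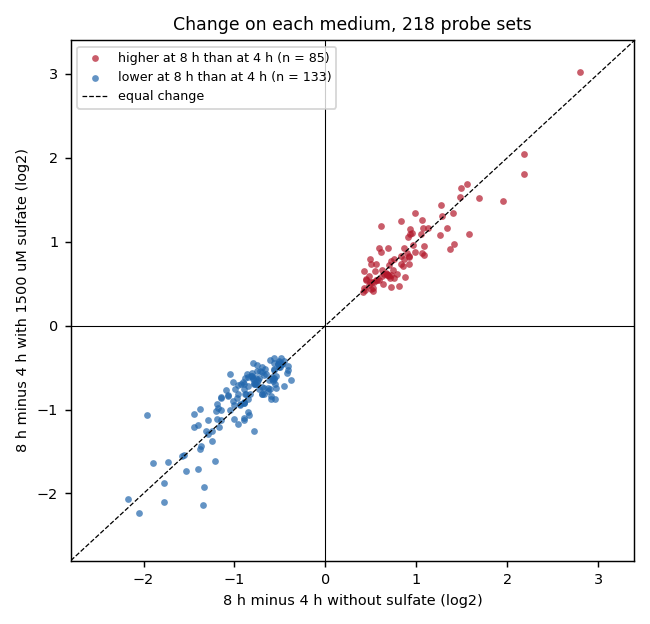
Change from 4 h to 8 h without sulfate (x axis, log2) against the change with 1500 uM sulfate (y axis, log2) for the 218 probe sets that passed, red where higher and blue where lower at 8 h; the dashed line marks equal change. All points lie below 0 on both axes or above 0 on both.

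The plot of the change on each medium shows each of the 218 with 1 point. That they share a direction in both media follows in part from how they passed, since all 4 pairs entered the test. AT4G01390 changed by 1.95 without sulfate and 1.49 with sulfate, AT2G23910 by 1.48 and 1.53, and AT3G16800 by -1.77 and -2.10.

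The gene with a difference between media was AT1G18310, with signals of 0.463 and 0.592 at 8 h without sulfate and 10.3 and 10.4 at 8 h with sulfate. All 4 arrays at 4 h lay between 0.554 and 0.665. The change without sulfate minus the change with sulfate was -0.89 (limma adjusted p = 0.0472), and it did not pass with the 8 arrays alone (adjusted p = 1). All of these signals lie far below the pooled median of 43.9.

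Lists could hold only probe sets with 1 gene named, so any clock gene among the 8730 probe sets with none listed was not seen. The lists were also chosen with earlier results of these data known. Among the clock genes, the evening-phased list had 3 members named in the annotation, of which 2 rose, beside 0.374% of all probe sets. COR27 and AT4G33980 (known as COR28) encode small cold-induced repressors that act in the clock late in the day. COR27 had signals of 52.7, 44.9, 40.2 and 35.8 at 8 h and 1.6, 2.72, 2.84 and 3.17 at 4 h (log2 difference 1.99, SE 0.14, limma adjusted p = 0.00154). AT4G33980 had 50.6, 50.8, 26.7 and 41.8 at 8 h and 14.6, 14.9, 8.62 and 11.8 at 4 h (1.17, SE 0.12, adjusted p = 0.00951). Neither gene's groups overlapped, and both were dim at 4 h. Their 8 h means, 43.4 and 42.5, were just under the 43.9 that the 12 largest rises had to reach. COR27 was also the 1 of 10 members of the abscisic acid, cold and dehydration list that passed. The median of that list was 0.08, and its member LTI30 differed by -0.53 (limma adjusted p = 0.0687).

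GI, the large clock protein GIGANTEA, which peaks late in the day, was the third member of the evening-phased list. It was bright at both times, with 358, 363, 310.1 and 309 at 8 h and 376, 368, 348 and 350.0 at 4 h. Its groups overlapped (log2 difference -0.11, SE 0.07, limma adjusted p = 0.522). Over the full course sampled at 0, 2, 4, 8, 12 and 24 h, GI averaged 162, 254, 361, 335, 118 and 187. COR27 averaged 2.71, 1.55, 2.58, 43.4, 20.9 and 0.728 in that order of hours, and AT4G33980 averaged 6.05, 6.73, 12.5, 42.5, 31.9 and 6.5. The morning-phased list had 1 member named in the annotation, AT5G52660 (REVEILLE 6), at 66.5 ± 8.01 at 8 h and 70.9 ± 7.97 at 4 h (SD, n = 4 each, log2 difference -0.08, limma adjusted p = 0.758). That 1 gene does not show how other morning genes changed.

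**Figure D3:**
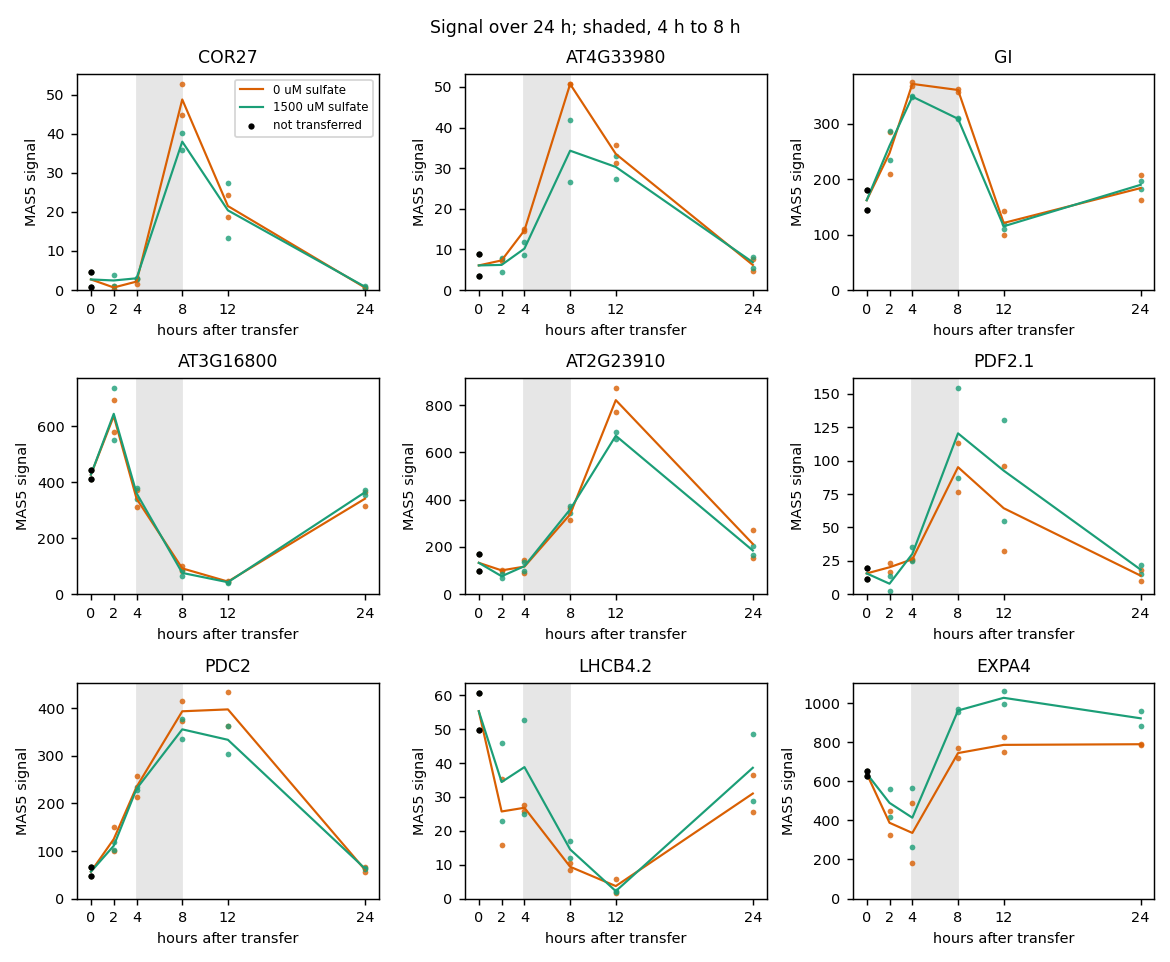
MAS5 signal (y axis) of 9 genes over the hours after transfer (x axis), with lines through the mean of both arrays, points for single arrays, orange for 0 uM and green for 1500 uM sulfate, black for roots that were not transferred and grey shading from 4 h to 8 h. COR27 and AT4G33980 are highest at 8 h, PDC2 stays high at 8 h and 12 h, and AT3G16800 and LHCB4.2 are lowest at 12 h.

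The plot of signal over the hours sets this interval inside the whole course. AT3G16800 averaged 427, 640.1, 351, 84.3, 44.1 and 353 at 0, 2, 4, 8, 12 and 24 h, and AT2G23910 averaged 133, 88.7, 118, 349, 746 and 199. PDF2.1 averaged 15.6, 14.1, 28.2, 108, 78.5 and 16.1, and probe set 257985_at averaged 33.9, 18.6, 23.3, 246, 229 and 27.8. For each of these the 24 h mean was closer to the mean of roots that were not transferred than the 12 h mean was. AT1G03820 averaged 202, 118, 155, 373, 389 and 335.

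The 218 probe sets were next looked up in arrays that took no part in choosing them. In the same paired test of 12 h against 2 h, 8.96% of all probe sets were higher at 12 h and 7.8% lower. Of the 85 that rose from 4 h to 8 h, 71 were also higher at 12 h than at 2 h, and none was lower past the test. Of the 133 that fell, 123 were lower at 12 h than at 2 h, and none was higher past the test. The median log2 difference of 12 h minus 2 h was 0.93 for the 85 and -1.30 for the 133, beside 0.05 over all probe sets.

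In the test of 24 h against 12 h, 3.67% of all probe sets were higher at 24 h and 3.1% lower. Of the 85, 51 were lower at 24 h than at 12 h and 0 were higher past the test. Of the 133, 76 were higher at 24 h than at 12 h and 5 lower. UGT84A1 changed by -2.03 (limma adjusted p = 0.00124) and AT3G16800 by 2.72 (adjusted p = 2.14e-06) from 12 h to 24 h. AT4G01390 changed by -0.14 over these hours (adjusted p = 0.49). Neither this test nor that of 12 h against 2 h shares an array with 8 h against 4 h, but the roots come from the same time course. The 2 tests share the 12 h arrays, so they are not independent of each other. A deviation of those arrays would move the 2 tests in opposite directions.

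**Figure D4:**
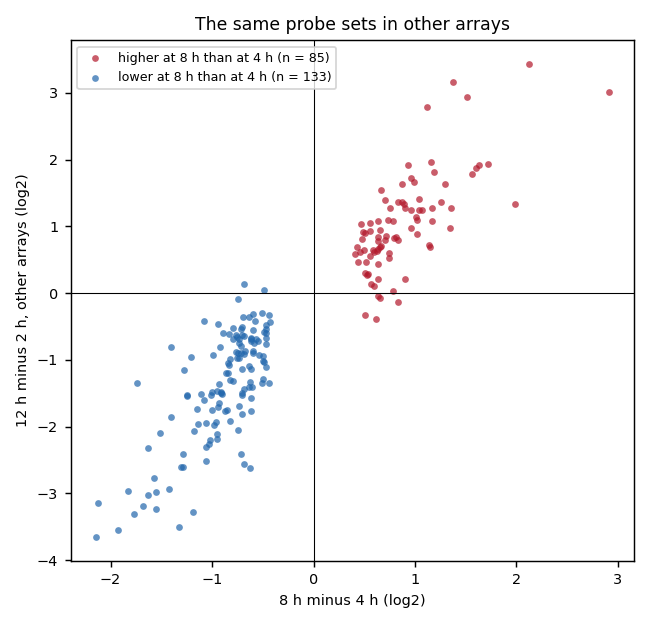
For the 218 probe sets, the change from 4 h to 8 h (x axis, log2) against the change from 2 h to 12 h in other arrays (y axis, log2), red where higher and blue where lower at 8 h than at 4 h. 80 of 85 red points lie above 0 and 131 of 133 blue points lie below 0 on the y axis.

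The neighbouring intervals, which share arrays with this one, had counts of like size in the same test: 85 probe sets rose and 170 fell from 2 h to 4 h (0.374% and 0.747%), and 51 rose and 124 fell from 8 h to 12 h (0.224% and 0.545%).

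The other gene lists were described by how many members passed and by their median, beside 0.958% of probe sets passing and a median of 0.04 over all. In these lists too, a member counts as measured only where its probe set has exactly 1 gene named. Most lists had no member that passed. For some of those, the number with an unadjusted p under 0.05 in the limma test is given too, beside 14.4% of all probe sets. Where the number is left out, some members may still have had such a p.

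**Figure D5:**
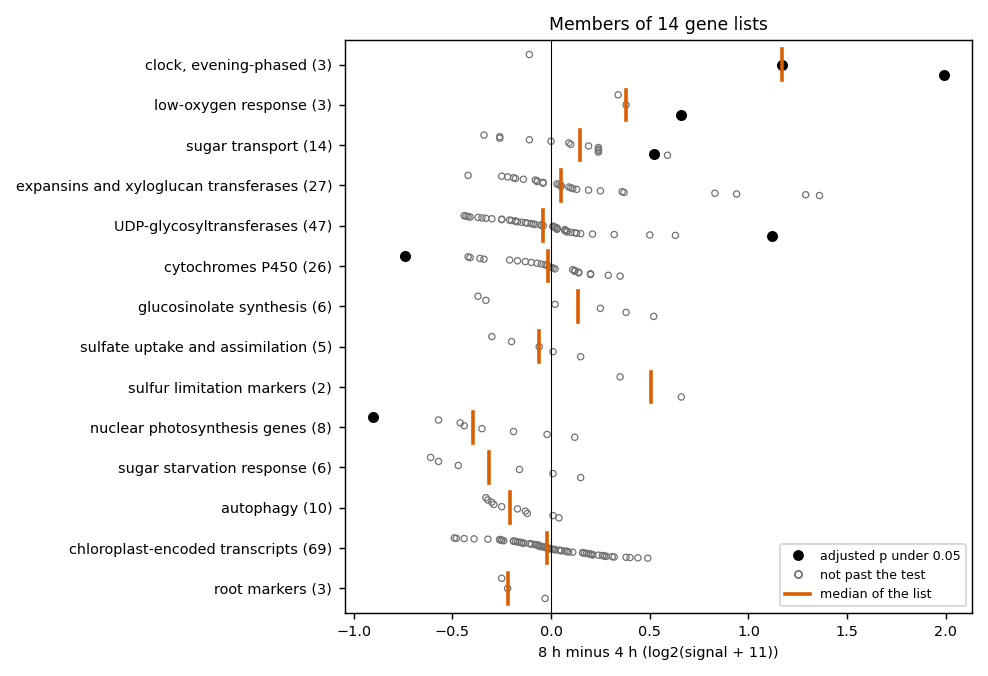
Change from 4 h to 8 h (x axis, log2(signal + 11)) of each measured member of 14 gene lists, with the number of probe sets in brackets; filled points passed at an adjusted p under 0.05, open points did not, and the orange bar is the list's median. Filled points occur in 6 of the 14 lists.

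PDC2, pyruvate decarboxylase, which opens the ethanol fermentation used at low oxygen, had signals of 373, 415, 335 and 378 at 8 h and 214, 257, 235 and 228 at 4 h (log2 difference 0.66, SE 0.08, limma adjusted p = 0.0131). The groups did not overlap. Over 0, 2, 4, 8, 12 and 24 h it averaged 56.5, 118, 233, 375, 366 and 61.9. The other two measured low-oxygen genes did not pass: the lactate dehydrogenase AT4G17260 differed by 0.38 (adjusted p = 0.336) and AT3G10040, the hypoxia response attenuator HRA1, by 0.34 (adjusted p = 0.335). In sugar transport, 1 of 14 members passed: the sucrose exporter SWEET11, with 107, 154, 93.2 and 79 at 8 h and 74.3, 99, 56.2 and 57.1 at 4 h (0.52, SE 0.09, adjusted p = 0.0461). Its groups overlapped, and it did not pass with all 22 arrays and letter (adjusted p = 0.0569).

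Expansins, which loosen cell walls so that cells can extend, and xyloglucan transferases, which cut and rejoin wall polymers, had 27 probe sets. None passed, 5 higher and 1 lower had an unadjusted p under 0.05, and the median was 0.05. Their brightest changes were large but uneven: EXPA4 had signals of 719.5, 770.2, 956 and 971 at 8 h and 180.3, 491, 262 and 565 at 4 h (log2 difference 1.29, SE 0.23, limma adjusted p = 0.0558). EXPA15 had 949, 961, 1004 and 1150 at 8 h and 193, 633, 249.5 and 726 at 4 h (1.36, SE 0.28, adjusted p = 0.0931). EXPB3 had 809, 1081, 1071 and 1413 at 8 h and 304, 793, 405 and 961 at 4 h (0.94, SE 0.18, adjusted p = 0.0703). For all 3 genes the A arrays at 4 h lay below the B arrays, and in the fit of all 22 arrays with letter all 3 passed, with adjusted p-values of 0.00378, 0.0238 and 0.0245. EXPA4 averaged 640.0, 439, 375, 854, 907 and 856 at 0, 2, 4, 8, 12 and 24 h.

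Of 8 nuclear photosynthesis genes, 1 passed, and 7 of the 8 differences were below 0, with a median of -0.40. LHCB4.2, an antenna protein of photosystem II, fell to 8.3, 10.5, 17.1 and 11.9 at 8 h, against 25.8, 27.7, 52.7 and 24.9 at 4 h (log2 difference -0.90, SE 0.13, limma adjusted p = 0.0331). RCA, the activase of Rubisco, had 73.2, 99, 102 and 113 at 8 h and 85.7, 169, 141 and 164 at 4 h (-0.46, SE 0.10, adjusted p = 0.113). The photosystem I subunits PSAN and PSAE-1 differed by -0.57 (adjusted p = 0.12) and -0.44 (adjusted p = 0.163). The 2 green tissue markers, RCA and LHCB4.1 (-0.35), belong to this list too. In a whole root, fewer cells of a type and less RNA per cell cannot be told apart. Of the 69 chloroplast-encoded transcripts none passed, 8 higher and 4 lower had an unadjusted p under 0.05, and the median was -0.02. The transcript of atpB, a subunit of the chloroplast ATP synthase, averaged 1172 ± 101 at 8 h and 1296 ± 24.2 at 4 h (SD, n = 4 each; -0.15), and petB of the cytochrome complex averaged 984 ± 37.3 at 8 h and 974 ± 90.6 at 4 h (0.02). The 3 root markers had a median of -0.22 with none past the test or an unadjusted p under 0.05, and EXPA18, an expansin of root hairs, averaged 139 ± 8.37 at 8 h and 166 ± 37.5 at 4 h (-0.22).

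Genes that rise when sugar runs short, 6 in number, had a median of -0.31 with none past the test and 3 lower at an unadjusted p under 0.05. The lowest members act in leucine breakdown. MCCB, a subunit of methylcrotonyl-CoA carboxylase, had signals of 138, 143, 90.8 and 111 at 8 h and 242, 168, 213 and 141 at 4 h (log2 difference -0.61, SE 0.15, limma adjusted p = 0.152). The other subunit, MCCA, differed by -0.47 (adjusted p = 0.234) and isovaleryl-CoA dehydrogenase, IVD, by -0.57 (adjusted p = 0.186). With all 22 arrays and letter, MCCB passed (adjusted p = 0.0254). The falls were larger in the A pairs, with means of -0.95 for MCCB, -0.72 for MCCA and -0.93 for IVD. In the B pairs they were -0.27, -0.22 and -0.22. The 10 autophagy genes, which carry out the recycling of cell contents, had a median of -0.21, none past the test and 4 lower at an unadjusted p under 0.05. ATG8F averaged 649 ± 47.8 at 8 h and 814 ± 198 at 4 h (SD, n = 4 each; -0.30), and APG8H averaged 407 ± 56.7 at 8 h and 484 ± 60.9 at 4 h (-0.25). The autophagy list's median was -0.42 and -0.34 in the A pairs without and with sulfate, and 0.02 and 0.01 in the B pairs.

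Genes of sulfur metabolism showed no member past the test. The 5 genes of sulfate uptake and assimilation had a median of -0.06, with differences between -0.30 and 0.15, and none had an unadjusted p under 0.05 or passed with all 22 arrays and letter. The list was matched by symbol and holds SAT32, which is named for salt tolerance. Of the 2 measured markers of sulfur limitation, the beta-glucosidase BGLU28 had signals of 30.4, 42.6, 13.8 and 11.8 at 8 h and 5.41, 19.9, 7.86 and 10.1 at 4 h (log2 difference 0.66, SE 0.20, limma adjusted p = 0.228), and passed with all 22 arrays and letter (adjusted p = 0.0421). The other marker, AT1G04770, had 393, 390.1, 173 and 208 at 8 h and 342, 312, 164 and 114 at 4 h (0.35, SE 0.12, adjusted p = 0.272). Both markers were higher without sulfate than with it at 8 h on these arrays, and AT1G04770 was so at 4 h too. The change of BGLU28 was 1.06 without sulfate and 0.25 with sulfate, and that of AT1G04770 was 0.25 and 0.44. Neither difference between media passed (limma adjusted p = 0.877 and 0.981).

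The 6 glucosinolate genes had a median of 0.13, none past the test, and 3 higher and 2 lower at an unadjusted p under 0.05. BCAT4, which starts methionine chain elongation, had signals of 982, 907, 1518 and 1576 at 8 h and 817, 944, 814 and 1174 at 4 h (log2 difference 0.38, SE 0.15, limma adjusted p = 0.305). Its change was 0.10 without sulfate and 0.66 with sulfate, and the difference between these did not pass (adjusted p = 0.871). UGT74B1, which glucosylates thiohydroximates, averaged 379 ± 44.5 at 8 h and 492 ± 61.6 at 4 h (SD, n = 4 each; -0.37). With all 22 arrays and letter, 2 of the 6 passed as higher and 2 as lower, BCAT4 and UGT74B1 among them. Of the 47 UDP-glycosyltransferases 1 passed (UGT84A1), with a list median of -0.04, and of 26 genes matched by symbol as cytochromes P450, among which CYP59 and CYP71 are cyclophilins, 1 passed: CYP71B26 fell to 107 ± 13.8 at 8 h, against 187 ± 40.5 at 4 h (-0.74, limma adjusted p = 0.0322). LHCB4.2, CCR2, CYP71B26 and SWEET11 passed in none of the 4 fits that left out a pair, and PDC2 and AT4G33980 in 1.

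In the remaining lists with no member past the test, the members named here differed by -0.44 to 0.17 between times. Among regulators, the log2 differences were 0.00 for WRKY6 and 0.12 for WRKY20, -0.16 for the ubiquitin ligase PUB23 and 0.13 for the zinc finger factor STZ, 0.04 for bHLH115 and -0.44 for bHLH104, and 0.01 for BZIP53. They were 0.17 for the auxin-conjugating enzyme gene GH3.17, -0.05 for IAA18, and -0.12 and -0.10 for the calmodulin-like genes CML42 and CML43. The histone genes HTB4 and HTB11 differed by -0.00 and -0.04, and HTB11 changed by 0.08 without sulfate and -0.17 with sulfate (adjusted p of that difference 0.893). The cellulose synthase-like CSLD2 differed by -0.01, COB, which acts in oriented cell expansion, by 0.05, the chaperone genes CRT1b and PDIL5-1 by -0.10 and -0.13, and the glutathione transferases GSTU22 and GSTU26 by -0.02 and -0.26. In the iron list PYE differed by -0.04 and FRO1, which here is a subunit of respiratory complex I matched by symbol, by 0.15. The mitochondrial ccb382 and nad4 differed by -0.19 and -0.35, and in sulfate assimilation APS4 differed by -0.20 and SIR by 0.15. The limma adjusted p-values of all these genes lay between 0.194 and 0.99.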

How the data were processed

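RNA of 22 root samples was put on 1 array each. The deposited intensity values are probe set signals. Per the submitters' processing notes the authors used MAS5, with its version not given in the sources used here. Every array had a mean of 100.01 once 2% was trimmed at each end, and so no further normalization was applied. The 64 array controls were left out of 22810 probe sets, and the others were put on a log2(signal + 11) scale. Arrays carry no counting depth, and their number limits the precision.

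Arrays were grouped by time and paired by medium and letter. The A minus B differences of the 4 groups correlated with r of 0.112 to 0.455 over probe sets for all 6 pairs of groups, so the letters were taken to pair the arrays. Between 4 h and 8 h on the same medium, as paired here, r was 0.206 without sulfate and 0.236 with sulfate. The highest r, 0.455, was between the media at 4 h. Pairs of the same letter may therefore not be independent, which the paired test did not allow for. The paired model was fitted in limma 3.58.1 with R 4.3.3, by lmFit and by eBayes with a trend in intensity, and tested on simulated data. The test of a difference between media, and the changes within a medium, came from all 22 arrays with the letter as a factor. The alternatives were no block, all arrays, other pseudocounts (1 and 50), a filter at the 40th percentile (a signal of 27), quantile normalization, no trend, and leaving out each pair.

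Platform annotation gave 1 gene for 13513 probe sets, several for 503 and none for 8730. RefSeq (TAIR10.1) matched 13436 of the 13513. The members and the 49 gene lists were chosen with earlier results of these data known. Genes named were the 12 largest rises and falls described above, 2 of each direction with no gene listed, up to 4 of each list that passed, and 5 by the test between media. For lists with none past the test the 2 brightest were named. A further 10 list members, the comparisons with arrays of other times, the mitochondrial list (22 probe sets, none past the test) and the genes under other observations were chosen after values were seen. No promoter or probe sequences were used here.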

Additional observations from a re-analysis of the deposited data

Results flagged for a closer look

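The change of AT1G18310 differed between media by -0.89 (without sulfate minus with sulfate, limma adjusted p = 0.0472). The gene averaged 0.528 without sulfate and 10.3 with sulfate at 8 h, and 0.594 without sulfate and 0.609 with sulfate at 4 h. At 2 h its arrays had 4.83 and 4.19 without sulfate and 0.626 and 0.943 with sulfate.

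In pair A with sulfate, the change of AT4G33980 was 0.94, apart from 1.27, 1.26 and 1.21 in the other 3 pairs. The change of the beta-tubulin gene TUB9 in the same pair was 0.37, apart from 0.75, 0.74 and 0.76. This pair also had the widest spread of differences over all probe sets (SD 0.415), whose part in these values was not tested. Chance sets apart about 1 in 20 groups by this measure, and 101 named genes were examined.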

How the results depend on the processing

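The counts of rises and falls were 21 and 29 with the 8 arrays and no replicate block, 345 and 367 with all 22 arrays and the letter as a block, 217 and 310 with the filter at the 40th percentile, and 35 and 59 with no trend in eBayes. They lay between 17 and 18 rises and between 21 and 55 falls when 1 pair was left out. With a pseudocount of 1 they were 112 and 174, with 50 they were 60 and 99, with quantile normalization 76 and 132, and with all 22 arrays and no block 121 and 150. The test between media passed for 0 probe sets with the 8 arrays and for 0 with the filter. The cause was not tested. Of the 24 named genes, none changed direction. Their choice by 4 pairs in the same direction fixed this in advance for every setting but quantile normalization. With the 8 arrays and no block 14 lost the call, 12, 10, 14 and 9 lost it without each of the 4 pairs, 6 with no trend, 2 with all arrays and no block, and 1 each with a pseudocount of 50 and with quantile normalization. No call was lost with the letter as a block over all arrays, a pseudocount of 1 or the filter. Over the 47 named genes and probe sets that passed, 12 kept the call without any 1 pair and 19 lost it whichever pair was left out. Among named genes that had not passed, 14 changed sign in at least 1 such fit: BZIP53 (-0.05 to 0.07), CML43 (-0.24 to 0.01), COB (-0.02 to 0.13), CSLD2 (-0.03 to 0.01), GSTU22 (-0.09 to 0.03), HTB11 (-0.10 to 0.00), HTB4 (-0.05 to 0.02), IAA18 (-0.21 to 0.16), PYE (-0.13 to 0.01), PYK10 (-0.11 to 0.11), STZ (-0.19 to 0.29), WRKY6 (-0.07 to 0.07), bHLH115 (-0.00 to 0.08) and petB (-0.05 to 0.08). With quantile normalization HTB4 (0.01), CSLD2 (0.01) and GSTU22 (0.00) also changed sign. Values of 0.00 and -0.00 are rounded and differ in sign before rounding. COR27 and AT4G33980 were too dim for the filter and were not tested under it. Precision is limited by 4 arrays per time and by dim probe sets.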

Other observations

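A further set of genes with established symbols passed the test but was not among those above. They were picked out after their values were seen, and THIC, SP1L5, PRN, SGT1A, ALDH7B4 and PSY1R each lost the call whichever of the 4 pairs was left out, while TUB9 kept it in 1 of the 4 fits. THIC, which makes the pyrimidine part of thiamin, had signals of 56.9, 83.5, 77.3 and 98.8 at 8 h and 28.7, 60.4, 34.1 and 49.4 at 4 h (log2 difference 0.75, SE 0.12, limma adjusted p = 0.0418). Its groups overlapped by array, and the 8 h array was higher in all 4 pairs. THIC averaged 30.8, 22, 43.2, 79.1, 69.2 and 40 at 0, 2, 4, 8, 12 and 24 h. The beta-tubulin gene TUB9 averaged 847 ± 203 at 8 h and 525 ± 79 at 4 h (SD, n = 4 each; log2 difference 0.66), and SP1L5, of the SPIRAL1 family of microtubule proteins, averaged 77.8 ± 7.13 at 8 h and 46.3 ± 9.54 at 4 h (0.64).

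Falls in this set included PRN, a pirin that binds the alpha subunit of the G protein, with 137 ± 9.6 at 8 h and 221 ± 42.7 at 4 h (SD, n = 4 each; log2 difference -0.63). SGT1A, a co-chaperone of resistance proteins, averaged 63.1 ± 7.5 at 8 h and 104 ± 26.2 at 4 h (-0.62). ALDH7B4, a stress-induced aldehyde dehydrogenase, averaged 489 ± 64.7 at 8 h and 733 ± 189 at 4 h (-0.55), and PSY1R, the receptor kinase named for a growth-promoting sulfated peptide, averaged 196 ± 14.1 at 8 h and 275 ± 14.5 at 4 h (-0.47). The arrays of these 4 genes did not overlap between times, and their limma adjusted p-values lay between 0.0326 and 0.0461. From 2 h to 12 h, in other arrays, PRN changed by -2.62 (adjusted p = 3.95e-05), SGT1A by -0.72 (adjusted p = 0.0103), ALDH7B4 by -0.72 (adjusted p = 0.00209) and PSY1R by -0.76 (adjusted p = 0.00056).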
